A study of Mus musculus with 5 samples.

Results

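Macrophage polarization genes are 40 genes listed by name, 23 that mark or drive alternative activation (M2) and 17 that mark or drive classical activation (M1). All 40 had an entry among the 21883 protein-coding genes on assembled chromosomes of the RefSeq table of GRCm38.p6, which has the coordinates of mm10. They were examined for chromatin immunoprecipitation (ChIP-seq) peaks of the transcription factor c-Maf in cultured mouse macrophages grown from C57Bl/6 bone marrow. Every library has the same cell type label, M2 polarized in vitro. The titles read M0 instead, and which state the cells were in is not settled by the labels. They name no knockout, agent, dose or time. The groups are 2 libraries precipitated with a c-Maf antibody and 2 precipitated with normal rabbit immunoglobulin as isotype control, numbered 3 and 4 in each group, and 1 input library, numbered 4, was the control of all 4 peak lists. Numbers 3 and 4 are biological replicates in the words of the design text, and nothing more is said of the animals. Peak lists carry no expression values, so neither the cell type nor the polarization could be checked against marker genes here.

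Macrophages take up different programmes from their surroundings. Interleukin-4 and interleukin-13, through STAT6, lead to alternative activation, with arginase, lectin receptors, chemokines for helper T cells and matrix proteins. Interferon-gamma and microbial products, through interferon regulatory factors and NF-kB, lead to classical activation, with nitric oxide synthase, interleukins and costimulatory molecules. c-Maf, of the basic leucine zipper family, binds Maf recognition elements and is known in macrophages for activating Il10 and for restraining Il12 genes.

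The 4 antibody libraries had 21655683 to 22017759 tags after duplicate removal, so depth was nearly equal. Their peak lists were not of equal length. MACS listed 23434 peaks for c-Maf antibody number 3 and 17620 for number 4, 58732 for isotype number 3 and 15568 for isotype number 4. At a q-value of 0.05 or smaller, between 0.415% (isotype number 3) and 3.06% (c-Maf antibody number 3) of a list remained. A count of genes with any peak therefore moves with the list, and each count is set beside the share of all protein-coding genes that met the same rule. A gene was counted for an antibody when both of its libraries had at least 1 peak overlapping the gene's window by 1 bp or more, a window being the gene span alone or with 5, 20 or 50 kb added on each side.

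No peak of any library lay in a promoter window of a member. The RefSeq table of promoters, with 250 bases before and 50 after a start, had 28 of the 40 members. Over all 32851 promoter windows of that table, 0.578% and 0.353% held a peak of c-Maf antibody numbers 3 and 4, and 0.743% and 0.225% one of isotype numbers 3 and 4. Of the members with a listed start, 4 had a c-Maf antibody summit in the 5 kb upstream of it, and their promoters are printed to show what lies at the starts nearest to such peaks. The sequences are the 250 bases before the start, 5′ to 3′ on the gene's strand, from RefSeq (GRCm38.p6). Capitals mark the Maf half-site TGCTGA and the AP-1 like site TGANTCA, searched on both strands, and among these sequences the 2 motifs overlap in Cxcl10.
Il1b (chr2:129371140-129371389, minus strand): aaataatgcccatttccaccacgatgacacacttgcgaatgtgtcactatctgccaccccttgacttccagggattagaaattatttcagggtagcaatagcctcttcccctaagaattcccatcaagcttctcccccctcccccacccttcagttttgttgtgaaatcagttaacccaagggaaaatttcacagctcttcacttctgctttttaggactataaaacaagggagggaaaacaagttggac
Irf5 (chr6:29526375-29526624, plus strand): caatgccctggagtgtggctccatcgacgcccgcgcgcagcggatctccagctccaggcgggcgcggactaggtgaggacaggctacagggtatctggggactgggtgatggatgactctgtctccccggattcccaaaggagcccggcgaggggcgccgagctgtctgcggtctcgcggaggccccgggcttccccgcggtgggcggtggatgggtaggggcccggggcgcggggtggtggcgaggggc
Chil3 (chr3:106167565-106167814, minus strand): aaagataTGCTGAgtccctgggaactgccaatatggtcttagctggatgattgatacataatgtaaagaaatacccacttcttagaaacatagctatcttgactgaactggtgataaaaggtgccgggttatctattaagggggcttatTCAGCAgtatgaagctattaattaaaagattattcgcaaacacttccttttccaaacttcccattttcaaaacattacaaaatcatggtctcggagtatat
Cxcl10 (chr5:92348890-92349139, minus strand): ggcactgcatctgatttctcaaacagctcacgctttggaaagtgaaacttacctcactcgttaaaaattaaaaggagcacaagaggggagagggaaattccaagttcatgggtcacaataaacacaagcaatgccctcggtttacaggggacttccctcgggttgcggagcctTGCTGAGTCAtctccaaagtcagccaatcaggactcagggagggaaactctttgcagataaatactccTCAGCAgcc

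Il1b encodes an inflammatory cytokine, Irf5 an interferon regulatory factor, Chil3 a chitinase-like secreted protein and Cxcl10 a chemokine for activated T cells. The c-Maf antibody summits lay 2426 bases upstream of the start of Il1b (number 3), 3591 upstream of Irf5 (number 3), 3967 upstream of Chil3 (number 4) and 4878 upstream of Cxcl10 (number 3). Each was found in 1 c-Maf antibody library, and the peak lay outside the printed sequence. Chil3 and Cxcl10 held the half-site 2 times each, and Il1b and Irf5 held neither motif. Over all promoter windows of the same 250 bases, 16.1% held the half-site. It was in 13.0% of the 23 windows of 16 M2 genes (Cd36, Chil3 and Retnla) and in 7.14% of the 14 windows of 12 M1 genes (Cxcl10). A gene listed with several starts has several windows. The AP-1 like site was in 6.75% of all windows, in none of the M2 windows and in 3 of the 14 M1 windows (Cd80, Cxcl10 and Il6). The palindromic T-MARE, TGCTGACTCAGCA, was in 1 of all 32851 windows and in none of a member. These letters describe the sequence and show no binding.

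Few members had a peak in the gene itself. Of 40 members, 28 had no peak of any library in the gene span, against 52.6% of all protein-coding genes and 23.6 members from genes of like length. Cd80, which encodes a costimulatory ligand of T cells, was the only member whose span held peaks from each of the c-Maf antibody libraries, as did 9.93% of all genes. Fn1, the gene of the matrix protein fibronectin, and Nos2, the inducible nitric oxide synthase gene, had a peak of both isotype libraries in the span, a call met by 11.3% of all genes. A c-Maf antibody peak of 1 library alone lay in the span of Msr1, Fn1, Nos2 and Cd86 (number 3) and of Egr2 and Pparg (number 4). Of all genes, 23.1% had a number 3 peak in the span and 17.6% a number 4 peak.

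Within 5 kb, peaks of both c-Maf antibody libraries were found at Fn1, Cd86 and Cd80 (12.0% of all genes) and peaks of both isotype libraries at Fn1 and Nos2 (13.6% of all genes). Within 20 kb, Cxcl10 joined the former (20.2% of all genes), and the latter were Chil3, Mgl2, Fn1 and Nos2 (23.2% of all genes). At 20 kb each antibody thus had 4 of 40 members. Mgl2, a lectin gene, had peaks of both isotype libraries and none of the c-Maf antibody at 20 kb (5.39% of all genes), and Pdcd1lg2 was the member with that call at 50 kb (5.37%). No library had a peak within 5 kb of 15 members (38.7% of all genes) and within 20 kb of 7 (15.3%), which were Arg1, Il4ra, Tgfb1, Ccl17, Irf1, Socs3 and Ifnb1.

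Within 50 kb, each antibody had peaks of both its libraries at 13 of 40 members. The background was 39.2% of all protein-coding genes for the c-Maf antibody and 42.5% for the isotype, so the 32.5% of members lay below it for each antibody. To take out window size, each member was given the share of all protein-coding genes in the same decile of window lengths. These shares summed to 14.46 members for the c-Maf antibody and 15.78 for the isotype. Tgfb1, which encodes a cytokine of repair and tolerance, was the only member with no peak of any library within 50 kb, as were 3.84% of all genes.

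By raw count within 50 kb, M2 genes were fewer with the c-Maf antibody than with the isotype, and M1 genes were more. Among M2 genes, 5 of 23 had peaks of both c-Maf antibody libraries within 50 kb (8.75 from genes of like window length) and 8 of 23 had peaks of both isotype libraries (9.49). Among M1 genes, 8 of 17 met the call with the c-Maf antibody (5.71) and 5 of 17 with the isotype (6.28). With the isotype, M2 and M1 genes were thus both below genes of like window length. Peaks of both isotype libraries lay near the M2 genes Retnla, Chil3, Clec10a, Mgl2, Ccl22, Pdcd1lg2, Fn1 and Irf4. They also lay near the M1 genes Nos2, Il12a, Cd40, Ccl5 and Socs3. The M2 genes with the c-Maf antibody were Chil3, Clec10a, Ccl22, Fn1 and Irf4, and each of the 5 also had peaks of both isotype libraries. The M1 genes were Il1b, Il12a, Il23a, Cxcl9, Cxcl10, Cd86, Cd80 and Irf1, of which Il12a also had peaks of both isotype libraries and every other one had a peak of isotype number 3. No member had peaks of both c-Maf antibody libraries without an isotype peak within 50 kb, against 2.02% of all genes. Cd80 met that call in the span, at 5 kb and at 20 kb, where 1.17%, 1.73% and 2.49% of all genes did. In the smaller windows, genes of like length gave 0.51 M1 genes with the c-Maf antibody in the span, 0.82 within 5 kb and 2.19 within 20 kb, where 1, 2 and 3 were found. For M2 genes they gave 1.89, 2.39 and 4.29, where 0, 1 and 1 were found. M1 counts were thus above, and M2 counts below, those of like-length genes in all 4 windows. Isotype counts of M1 genes were 1, 1 and 1 against 0.64, 1.00 and 2.65, and those of M2 genes 1, 1 and 3 against 2.27, 2.80 and 4.97.

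Cxcl9 and Cxcl10 lie 18.6 kb apart and were counted from the same c-Maf antibody peaks.

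**Figure D1:**
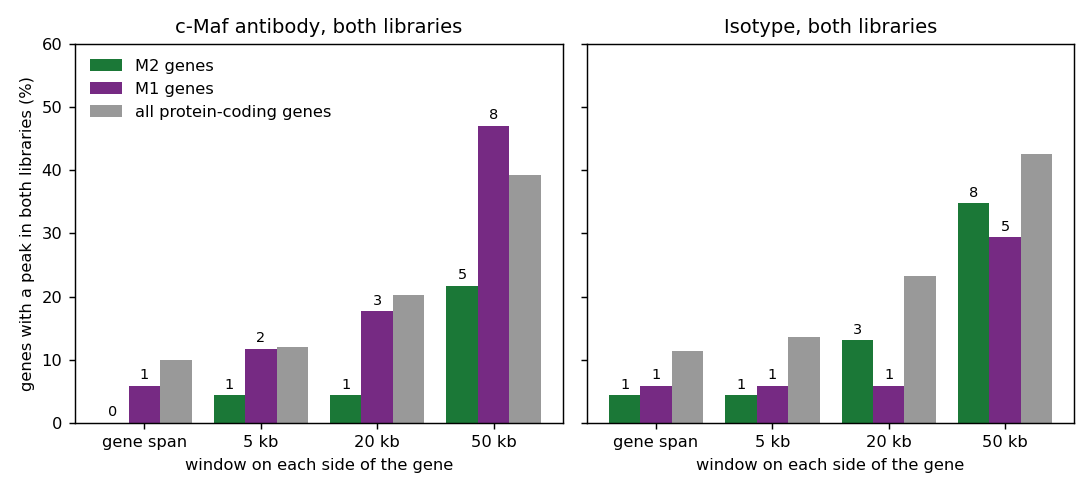
Percent of genes (y axis) with a peak of both libraries of the c-Maf antibody (left) or the isotype (right), by the window added on each side of the gene (x axis); green bars are the 23 M2 genes, purple bars the 17 M1 genes with the number of genes above each bar, and grey bars all 21883 protein-coding genes. Only the M1 genes at 50 kb with the c-Maf antibody, 8 of 17, stand above the grey bar, which is not corrected for window length.

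In single libraries the M1 genes near a c-Maf antibody peak were unequal in number at 5 kb. Within that window, c-Maf antibody number 3 had a peak at 9 of 17 M1 genes (29.3% of all genes) and at 5 of 23 M2 genes. Number 4 had one at 2 of 17 M1 genes (21.9% of all genes) and at 5 of 23 M2 genes. The 9 M1 genes of number 3 were Nos2, Il1b, Il12b, Il23a, Cxcl10, Cd86, Cd80, Cd40 and Irf5, and the 2 of number 4 were Cd86 and Cd80. The M2 genes were Clec10a, Msr1, Fn1, Klf4 and Mmp9 for number 3 and Retnla, Chil3, Fn1, Egr2 and Pparg for number 4. The 2 libraries thus shared Fn1, Cd86 and Cd80 alone. Isotype number 3 had a peak within 5 kb of 3 M1 and 8 M2 genes (43.0% of all genes), and isotype number 4 one near 1 M1 and 2 M2 genes (19.1% of all genes).

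Within 50 kb, c-Maf antibody number 3 had a peak at 14 of 17 M1 and 15 of 23 M2 genes (66.7% of all genes), and number 4 had one at 11 M1 and 8 M2 genes (53.8% of all genes). Isotype number 3 had one at 15 M1 and 20 M2 genes (85.0% of all genes), and isotype number 4 one at 5 M1 and 8 M2 genes (47.3% of all genes). The share of M1 genes was thus above that of all genes in 3 of the 4 libraries, and isotype number 4 was the exception.

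**Figure D2:**
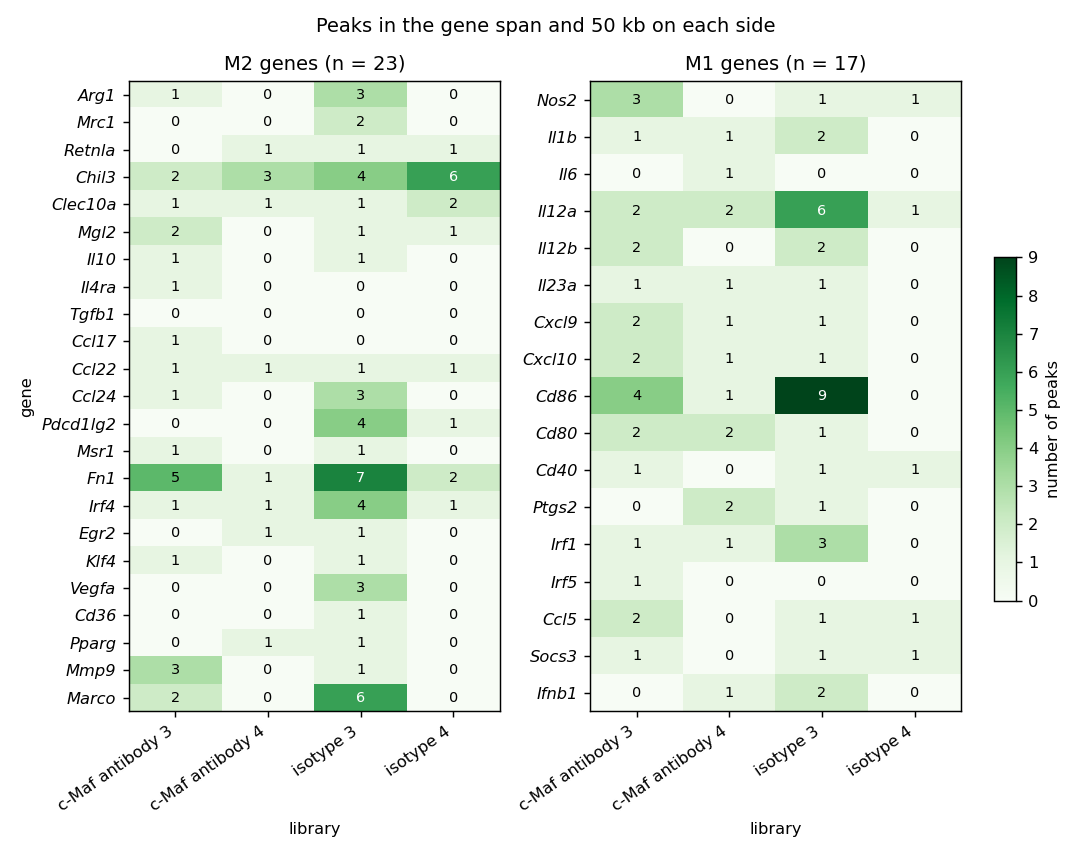
Number of peaks (colour and printed digit) in the gene span and 50 kb on each side for each member (rows) in each of the 4 libraries (columns), M2 genes left and M1 genes right. Most cells hold 0 to 2 peaks, Chil3, Fn1, Il12a, Cd86 and Marco have the most, and Tgfb1 has none.

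Peak density gave the same comparison without a yes or no call. Windows of 50 kb were merged, distinct peaks were counted per Mb, and the value was divided by that of the same list in the merged windows of all protein-coding genes. A relative density of 1 is then the level of genes in general, with list length and window size taken out. Exact Poisson intervals (95%) cover counting error only.

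At the M1 loci the relative density was 1.29 (interval 0.819 to 1.94, 23 peaks) in c-Maf antibody number 3 and 1.02 (0.541 to 1.74, 13 peaks) in number 4. It was 0.761 (0.521 to 1.07, 32 peaks) in isotype number 3 and 0.449 (0.146 to 1.05, 5 peaks) in isotype number 4. Both c-Maf antibody values were above both isotype values, and every interval overlapped the others. The means were 1.15 ± 0.195 and 0.605 ± 0.221 (SD, n = 2 libraries each).

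At the M2 loci the values were 0.794 (0.497 to 1.2, 22 peaks) and 0.502 (0.241 to 0.924, 10 peaks) for c-Maf antibody numbers 3 and 4. Those of the isotype were 0.703 (0.515 to 0.937, 46 peaks) and 0.808 (0.442 to 1.36, 14 peaks). The antibodies overlapped, with means of 0.648 ± 0.206 and 0.755 ± 0.0744 (SD, n = 2 libraries each). All 4 values were below 1.

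The difference of M2 minus M1 loci was -0.498 and -0.514 in c-Maf antibody numbers 3 and 4, and -0.0583 and 0.359 in the isotype libraries. It was lower in both c-Maf antibody libraries than in either isotype library, with a mean difference between the antibodies of -0.656. The same held within 20 kb, at -1.03 and -0.512 against 0.112 and 0.430. It did not hold within 5 kb, at -1.53 and 0.0861 against 0.0969 and -0.0383, or in the span, at -0.839 and -0.147 against 0.306 and -0.400, where the antibodies overlapped.

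Over all 40 loci the c-Maf antibody mean was 0.846 ± 0.202 and the isotype mean 0.697 ± 0.0409 (SD, n = 2 libraries each), a difference of 0.149 that was smaller than the spread of the c-Maf antibody libraries and fell to 0.0067 without number 3. It turned to -0.0664 when only peaks with a p-value of 1e-05 or smaller were kept. In the smaller windows the difference was larger, at 0.283 within 20 kb, 0.623 within 5 kb and 0.320 in the span. There the c-Maf antibody values were above both isotype values, as at 5 kb, with 1.34 and 0.737 against 0.471 and 0.363. A two-sided permutation test over the 4 libraries has 3 splits and cannot give a p below 1 in 3, so none is given. Within 20 kb the M1 values were 1.61 and 0.960 with c-Maf antibody against 0.484 and 0.182 with isotype, and within 5 kb they were 2.4 and 0.678 against 0.404 and 0.389. The values of the antibodies did not overlap in either window, but they rest on few peaks. Isotype number 4 had 1 M1 peak in each window. At 5 kb c-Maf antibody number 4 had 2 (interval 0.082 to 2.45). In the span alone the values overlapped, at 1.54 and 0.542 against 0.160 and 0.629. M2 loci had the same order within 5 kb, at 0.866 and 0.764 against 0.501 and 0.351, and the opposite order within 20 kb, at 0.578 and 0.448 against 0.596 and 0.612.

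**Figure D3:**
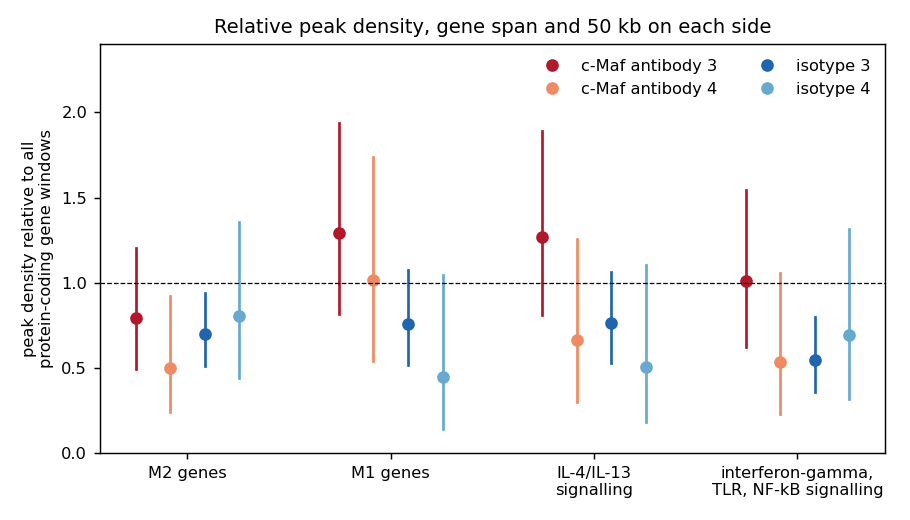
Peak density within 50 kb relative to all protein-coding gene windows of the same list (y axis; dashed line at 1) for the M2 genes, M1 genes and the 2 signalling lists (x axis); points are single libraries and bars their exact Poisson 95% intervals. At the M1 genes the red points, 1.29 and 1.02, lie above the blue ones, 0.761 and 0.449, and every bar overlaps the others.

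The peaks behind these counts were weak, as were most peaks of the whole lists. Within 50 kb of the members lay 165 distinct peaks, 68 of the c-Maf antibody and 97 of the isotype, with summit pileups between 2.94 and 9.87 scaled tags. The pileup is the authors' count of stacked fragments at the summit. The median fold enrichment, given by the authors relative to the local input, was 3.84 and 3.95 in c-Maf antibody numbers 3 and 4, and 3.46 and 3.93 in the isotype libraries. In the whole lists the medians were 3.89, 3.96, 3.46 and 4.02, so peaks at members were of ordinary strength. Of the 165 peaks, 3 passed a q-value of 0.05: 2 of c-Maf antibody number 4 (Pparg and Il12a) and 1 of isotype number 4 (Fn1). In c-Maf antibody numbers 3 and 4, 0% and 8.70% of member peaks passed, against 3.06% and 2.87% of the whole lists. In isotype numbers 3 and 4, 0% and 5.26% passed, against 0.415% and 2.62%.

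**Figure D4:**
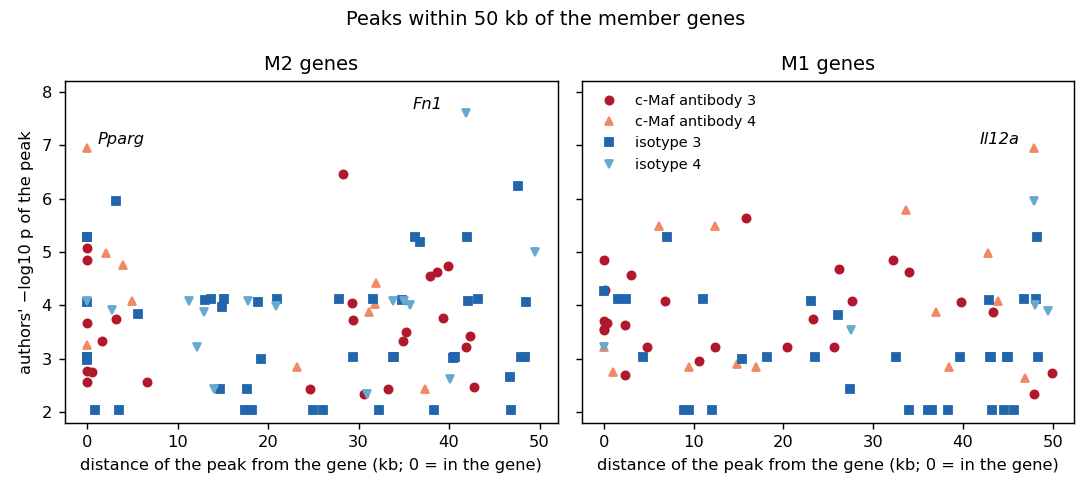
The authors' −log10 p of each peak (y axis) against its distance from the gene, with 0 for a peak in the gene (x axis, kb), for M2 genes (left) and M1 genes (right); symbols are libraries and a gene name marks a peak that passed a q-value of 0.05. The 3 named peaks are at Pparg, Fn1 and Il12a, and both antibodies are spread over all distances.

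Peaks counted in both libraries were rarely at the same place. Among the 13 members with peaks of both c-Maf antibody libraries, the closest peaks of the pair overlapped at 1, Il12a, and were otherwise 1.2 to 70.1 kb apart. The median over all 13 was 13.2 kb. For the isotype pair they overlapped at 1 of 13, Fn1, and were otherwise 0.2 to 79.0 kb apart, with a median over all 13 of 15.9 kb. Over all protein-coding genes 3.56% had a site of overlapping c-Maf antibody peaks within 50 kb, and 3.17% had one without an isotype peak. No member had one of the latter kind. For the isotype the shares were 1.84% of all genes, and 1.45% for sites without a c-Maf antibody peak, and 1 of 40 members, Fn1, met both.

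The Il12a site was also an isotype site. Il12a encodes the p35 chain of interleukin-12, which drives helper T cells towards interferon-gamma. The site was 47.9 kb outside the gene on chromosome 3 at 68746415 to 68746516, in no protein-coding gene. Its fold enrichment was 2.60 in c-Maf antibody number 3, 5.43 in c-Maf antibody number 4 and 4.92 in isotype number 4, and isotype number 3 had no peak there. The peak of c-Maf antibody number 3 was among the weakest of its list, at percentile 1.8 of p. The other peaks within 50 kb of Il12a were 1 in each c-Maf antibody library and 6 in isotype number 3.

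Cd80 and Cd86, genes of costimulatory ligands, had a c-Maf antibody peak of each library in the gene or within 5 kb of it. Of all genes, 12.0% met that call. Cd80 (chromosome 16, 38457430 to 38495958) had 1 peak of number 3 in the gene at 38475823 to 38475885, with a fold enrichment of 3.77, and 1 of number 4 at 38494005 to 38494120, with 3.46. They were 18.1 kb apart, and both had a −log10 q of 0.0, so neither passed after correction over its list. Number 3 had a stronger peak 15.9 kb outside the gene, with a fold enrichment of 4.97. Isotype number 3 had 1 peak 45.0 kb away and isotype number 4 none within 50 kb.

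Cd86, the related ligand gene, had a peak of number 3 in the gene at 36580317 to 36580452 on chromosome 16, with a fold enrichment of 3.86. Number 4 had one 1.0 kb outside it at 36567844 to 36567936, with 3.29. Within 50 kb the counts were 4 and 1 in the c-Maf antibody libraries and 9 and 0 in the isotype libraries, so isotype number 3 had the most. Cd40, the receptor of the T cell ligand CD40L, had 1 peak of number 3, 0.4 kb outside the gene, with a fold enrichment of 3.84, and its nearest peak of number 4 was 50.4 kb away. Isotype numbers 3 and 4 had peaks 38.3 kb and 49.5 kb from Cd40.

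Chemokine genes among M1 genes were Cxcl9, Cxcl10 and Ccl5. Near Cxcl10, number 3 had peaks 4.8 kb and 6.8 kb outside the gene, with fold enrichments of 3.41 and 3.90, and number 4 had one 6.1 kb outside it, between Cxcl10 and Cxcl9, with a fold enrichment of 4.94 and a −log10 q of 0.62. All 3 lay in the span of Art3, an ADP-ribosyltransferase gene that covers this locus. Isotype number 3 had a peak 9.5 kb away with a fold enrichment of 2.77. At Ccl5, a chemokine gene of T cells and monocytes, the c-Maf antibody counts within 50 kb were 2 and 0, and those of the isotype 1 and 1.

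All 6 M1 cytokine genes were without a c-Maf antibody peak in the span, where 23.1% and 17.6% of all genes had one of numbers 3 and 4. Those shares are not corrected for gene length, and the 6 spans were only 770 bp (Ifnb1) to 14615 bp (Il12b). The absence of peaks therefore cannot be read as depletion, and like-length genes were not drawn for these 6 alone. Of the 6, 3 (Il1b, Il12a and Il23a) had peaks of both libraries within 50 kb, as did 39.2% of all genes. Il1b had its nearest peaks 2.4 kb (number 3) and 33.7 kb (number 4) away, the latter with a fold enrichment of 5.13, and an isotype number 3 peak 15.4 kb away. Il23a, which encodes the p19 chain of interleukin-23, had them 2.4 kb and 46.9 kb away, and one of isotype number 3 at 27.4 kb. Il12b, which encodes the p40 chain shared by interleukin-12 and interleukin-23, had a peak of number 3 at 0.1 kb and none of number 4 nearer than 298.4 kb. Its fold enrichment was 4.19, and isotype number 3 had a peak 1.5 kb away with 4.15. Il6, an acute phase cytokine gene, had 1 peak of number 4, 14.8 kb away. Ifnb1, the interferon-beta gene, had 1 of number 4, 42.8 kb away, and 2 of isotype number 3, the nearer 32.5 kb away.

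Among the M1 enzyme and regulator genes, Irf1 alone had peaks of both c-Maf antibody libraries within 50 kb, a call met by 39.2% of all genes. Nos2 had 2 peaks of number 3 in the gene, with fold enrichments of 3.75 and 4.55, none of number 4, and 1 of each isotype library in the gene, with fold enrichments of 4.20 and 3.44. Ptgs2, the inducible cyclooxygenase gene, had 2 peaks of number 4 within 50 kb, the nearer 9.5 kb away, none of number 3, and 1 of isotype number 3, 11.0 kb away. Irf1, an interferon regulatory factor gene, had 1 of each c-Maf antibody library, 39.7 kb and 38.4 kb away and 1.2 kb from each other, and 3 of isotype number 3. Irf5 had 1 peak of number 3 and no isotype peak within 50 kb. Socs3, a feedback inhibitor of cytokine receptors, had 1 of number 3, 26.2 kb away. Isotype numbers 3 and 4 had peaks 48.3 kb and 48.1 kb from Socs3, 0.2 kb from each other.

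Among M2 secreted products, Fn1 (chromosome 1, 71585473 to 71653280) had the most peaks of either antibody in the gene. Number 3 of the c-Maf antibody had 4 peaks in the gene, with fold enrichments between 3.12 and 4.55, and number 4 had none there and 1 at 5.0 kb with 3.95. The strongest of the 4 lay at 71597569 to 71597631 and overlapped a peak of isotype number 3, with a fold enrichment of 3.46. The isotype pair overlapped at 71695194 to 71695333, 41.9 kb outside the gene, with fold enrichments of 4.84 and 6.13, the latter with a −log10 q of 1.86.

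Chil3 had 2 and 3 c-Maf antibody peaks and 4 and 6 isotype peaks within 50 kb, and none in the gene. The isotype counts were thus higher in each number. Of these 15 peaks, 4 lay in Chil4, a neighbouring gene of the same family, where reads from near-identical copies could be split between genes. Retnla, which encodes another secreted M2 product, had 1 peak of c-Maf antibody number 4 at 2.1 kb, with a fold enrichment of 4.60, and its nearest of number 3 was 85.9 kb away. The isotype libraries had peaks 19.2 kb and 40.1 kb from it.

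Among the other secreted M2 products, Il10 had 1 of number 3, 28.3 kb outside the gene, with a fold enrichment of 5.38 and a −log10 q of 1.24, the highest of its library at any member. In Il10 itself there was an isotype number 3 peak, with a fold enrichment of 4.84, and number 4 of the c-Maf antibody had none within 50 kb. Ccl17 and Ccl22, neighbouring genes of chemokines for helper T cells, shared the same peak of number 3 between them, and Ccl22 also had 1 of number 4, 31.1 kb away. The isotype libraries had peaks 31.6 kb and 2.8 kb from Ccl22. Ccl24, an eosinophil chemokine gene, had 1 of number 3, 42.3 kb away, and 3 of isotype number 3, the nearest 13.0 kb away. Mmp9, a gelatinase gene, had 3 of number 3, the nearest 0.5 kb away, none of number 4, and 1 of isotype number 3, 17.5 kb away. Vegfa, an angiogenic growth factor gene, had none within 50 kb, with the nearest 96.7 kb and 159.2 kb away, and 3 of isotype number 3, the nearest 0.8 kb away.

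Among M2 genes of surface proteins, Clec10a alone had peaks of both c-Maf antibody libraries within 50 kb (39.2% of all genes). Number 3 had a peak within 50 kb of Clec10a, Mgl2, Il4ra, Msr1 and Marco (66.7% of all genes). Number 4 had one at Clec10a alone (53.8% of all genes). Msr1, a scavenger receptor gene, had 1 peak of number 3 in the gene, with a fold enrichment of 4.60, and no peak of number 4 within 50 kb. Clec10a, a galactose-binding lectin gene, had 1 peak of each, 1.6 kb and 23.2 kb away, with fold enrichments of 3.60 and 3.35. Mgl2, its neighbour, had 2 of number 3 and none of number 4, and a peak of isotype number 3 in the gene and of isotype number 4 at 11.2 kb. Marco, a scavenger receptor gene, had 2 and 0 c-Maf antibody peaks within 50 kb and 6 and 0 isotype peaks. Il4ra, the interleukin-4 receptor gene, had 1 of number 3, 42.7 kb away. Mrc1, Pdcd1lg2 and Cd36, the genes of the mannose receptor, the PD-L2 ligand and a lipid scavenger receptor, had no c-Maf antibody peak within 50 kb, and their isotype number 3 counts were 2, 4 and 1.

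Among M2 transcription factor genes, Pparg held the only c-Maf antibody peak in a member gene that passed a q-value of 0.05. In Pparg, which encodes a nuclear receptor of lipid metabolism, number 4 had a peak on chromosome 6 at 115401114 to 115401177, with a fold enrichment of 5.78 and a −log10 q of 1.49, at percentile 97.6 of p in its list. The nearest peak of number 3 was 117.0 kb away, and the isotype libraries had peaks 26.1 kb and 253.2 kb away. Egr2, an IL-4 response factor gene, had 1 peak of number 4 in the gene, with a fold enrichment of 3.60, and none of number 3 nearer than 230.1 kb. Klf4 had 1 of number 3 at 3.2 kb, with a fold enrichment of 3.89, and its nearest of number 4 was 63.7 kb away. A peak of isotype number 3 lay 47.6 kb from it, with 5.37. Irf4 had 1 of each, 39.9 kb and 32.0 kb away, with fold enrichments of 4.48 and 4.33, and 4 and 1 isotype peaks. Arg1, the arginase gene, had 1 of number 3 within 50 kb, with a fold enrichment of 2.60, and 3 of isotype number 3.

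Distance to the nearest peak differed between M1 and M2 genes most in c-Maf antibody number 3. Its median was 4.8 kb for M1 genes and 35.3 kb for M2 genes, and 25.5 kb for all protein-coding genes. In number 4 it was 38.4 kb for M1 and 63.7 kb for M2 genes, and 43.0 kb for all. Isotype number 3 had 23.0 kb and 19.2 kb against 8.9 kb, and isotype number 4 had 94.7 kb and 71.9 kb against 55.7 kb. M1 genes were thus nearer than M2 genes in both c-Maf antibody libraries and farther in both isotype libraries, by medians given without a test.

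Other genes of the 2 pathways did not repeat the order of M1 above M2. Of 16 further genes of interleukin-4 and interleukin-13 signalling, 7 had peaks of both c-Maf antibody libraries within 50 kb and 5 had peaks of both isotype libraries. Of 18 further genes of interferon-gamma, Toll-like receptor and NF-kB signalling, 5 and 6 did. The background was 39.2% and 42.5%. Relative densities of the former list were 1.27 and 0.663 in c-Maf antibody numbers 3 and 4, and 0.762 and 0.508 in the isotype. Those of the latter were 1.01 and 0.536, and 0.550 and 0.693. The antibodies overlapped in both lists. Rxra, which encodes the partner of PPAR-gamma on DNA, was the only gene of the 2 lists with a site in its span where the c-Maf antibody peaks overlapped and no isotype peak did, a call met by 0.946% of all genes. Within 50 kb (3.17% of all genes) Tnf, the gene of tumour necrosis factor, joined it. Of 6 macrophage markers, Itgam and Csf1r, the genes of an integrin chain and of the growth factor receptor of macrophages, had such a site in the span. The T and B cell and fibroblast markers had none. By the call of peaks in both libraries within 50 kb, 2 of the 6 macrophage markers met it with the c-Maf antibody and 1 with the isotype. The shares of all genes were 39.2% and 42.5%. Of 7 T and B cell markers, 2 had peaks of both c-Maf antibody libraries within 50 kb and 6 had peaks of both isotype libraries. Of 5 fibroblast markers, 3 and 1 did.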

How the data were processed

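ChIP-seq peaks of 2 c-Maf antibody and 2 isotype libraries were analysed, and the input library only as it enters the peak calls. Peaks were called by the authors per library with MACS 2.1.1.20160309 at a p-value of 0.01, with 1 tag kept per position and the number 4 input as control, per the file headers. The build is mm10, per the submitters' processing notes. The aligner was not given in the sources used here. The deposited tables give a pileup signal at the summit, a fold enrichment ratio, and the −log10 of the p-value and of the q-value of each peak, per the file headers. Those 4 values served to describe, rank or filter peaks within a list. Folds of several libraries printed side by side describe each peak in its own list. Depth was 21655683 to 22017759 tags, and a peak of few tags has a large counting error.

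Peaks were assigned to genes by 1 bp overlap in Python 3.11.15 with pandas 2.3.3. Spans came from RefSeq, which lists no exons here. The counting was checked against a direct count on simulated peaks. The exact permutation test planned over libraries is not printed, because 2 against 2 cannot go below 1 in 3 and the members were chosen with earlier results of these data known, as were the lists. Values per library were planned for members with peaks of both libraries of 1 antibody within 20 kb, a peak of the c-Maf antibody in the span, or an overlapping pair within 50 kb; values of others were chosen after being seen. Alternatives were summit placement, equal list lengths, p of 1e-05, q of 0.05, removal of peaks found with both antibodies, a fixed window, neighbours counted once, overlapping peaks, each library left out, and number as a block. Peak sequences were not analysed here.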

Additional observations from a re-analysis of the deposited data

How the results depend on the processing

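Stricter settings emptied the counts of members with peaks of both libraries within 50 kb, by construction, since few peaks remain. At a q-value of 0.05 or smaller, all 4 counts (M2 and M1 genes, c-Maf antibody and isotype) were 0. At a p-value of 1e-05 or smaller they were 0 for M2 and M1 genes with the c-Maf antibody, and 1 and 0 with the isotype. When the peaks of the pair had to overlap each other, they were 0 (M2) and 1 (M1) for the c-Maf antibody and 1 (M2) and 0 (M1) for the isotype. At equal list lengths of 15568 peaks, M2 genes numbered 3 with the c-Maf antibody and 4 with the isotype, and with a fixed window around the gene midpoint, M1 genes with the isotype numbered 2. The other counts under these 2 settings, and those with summits in the window, neighbours counted once or peaks found with both antibodies removed, stayed within 1.5 times. With 1 library left out, a lone list is not filtered by a replicate: the counts ranged from 8 to 15 (M2) and 11 to 14 (M1) for the c-Maf antibody, and from 8 to 20 (M2) and 5 to 15 (M1) for the isotype. The higher ends are those without c-Maf antibody number 4 and without isotype number 4.

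The difference of relative density over the 40 loci, c-Maf antibody minus isotype, turned to -0.0664 at a p-value of 1e-05 or smaller, and lay between 0.0067 (without c-Maf antibody number 3) and 0.292 (without c-Maf antibody number 4) when 1 library was omitted. The cause was not tested. It was 0.071 at equal list lengths, 0.271 with the fixed window and 0.344 at a q-value of 0.05 or smaller. The difference between the antibodies in M2 minus M1 loci kept its sign under every alternative run. It lay between -0.865 and -0.448 with 1 library omitted. It was -1.0 at a p-value of 1e-05 or smaller and -1.65 at a q-value of 0.05 or smaller. At that q-value only 3 peaks remained, at Pparg and Il12a in c-Maf antibody number 4 and at Fn1 in isotype number 4. At the p-value of 1e-05 or smaller, c-Maf antibody number 3 kept peaks at Il10, Msr1 and Cd80 alone. The values at both strict settings thus rest on few peaks. With the number as a replicate block, the 2 differences were 0.149 and -0.656, and the labels tie neither animal nor day to a number. Within number 3 and number 4 the first was 0.263 and 0.0356, and the second -0.440 and -0.873.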
